A study of Mus musculus with 32 samples.

Results

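The subject is a set of 10 genes that mark macrophages of tissues and leukocytes in general, out of 13780 genes in the deposited table. The set comprised Ptprc, Emr1, Csf1r, Cd68, Mrc1, C1qa, C1qb, C1qc, Lyz2 and Mertk. They were chosen by name as known markers, without a threshold on any value, and all 10 were found by symbol. RNA was sequenced from whole tissue in 32 libraries of C57/BL6 mice, in 8 groups of 4, in a model of benign prostatic hyperplasia. Adult males carried testosterone (25 mg) and oestrogen (2.5 mg) under the skin for 2 weeks (T+E2), and the control males had no hormone. The labels do not say whether control mice received empty implants. From both groups of adults the dorsal lateral prostate (DLP), the anterior prostate (AP) and the prostatic urethra were taken. The urogenital sinus (UGS), in which prostate buds form in the embryo, came from male embryos at E16.5 and was cultured with testosterone or without hormone. The culture time in testosterone was 6 days, and the labels give no culture time for the arm without hormone. Values are TPM, a transcript level corrected for length and scaled to the same total in every library. A library is called by its group with the number or letter of its title. Nothing in the labels says that the libraries of a group came from separate animals or cultures, so the p-values describe only how far these libraries differ from each other.

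Macrophages live in every organ, where they engulf dying cells and debris, sample the tissue and signal to other immune cells. Their survival depends on the receptor encoded by Csf1r, which binds the growth factors encoded by Csf1 and Il34. Several of the markers take part in clearing cells. The products of C1qa, C1qb and C1qc are the chains of C1q, the recognition part of the classical complement pathway, and Mertk encodes a receptor kinase that sees dying cells through the bridging ligands encoded by Gas6 and Pros1. Ptprc encodes CD45, a phosphatase on the surface of nearly all leukocytes. Emr1, now named Adgre1, encodes the antigen by which mouse macrophages are most often stained. Cd68 encodes a protein of the lysosome membrane, Mrc1 the mannose receptor CD206, and Lyz2 the lysozyme of macrophages and neutrophils. Some members are also known from cells other than leukocytes: Mertk from Sertoli cells of the testis and the retinal pigment epithelium, Mrc1 from lymphatic and liver sinusoidal endothelium, and Lyz2 from secretory cells of the lung alveoli.

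Promoter windows are shown first, for C1qb, C1qc and Mertk. They were picked because the complement genes varied together and Mertk apart from them, as the correlations further on show. The windows come from RefSeq on build GRCm38.p6 and run from 250 bases before to 50 bases after the annotated start of the gene. Entries were found for 7 of the 10 genes, and Ptprc had 2 entries, so 8 windows were searched. C1qb (chr4:136886151-136886450, minus strand) and C1qc (chr4:136892865-136893164, minus strand) lie in a cluster of complement genes, and the Mertk window is chr2:128698665-128698964 on the plus strand. Capitals mark the letters GAGGAA or their reverse complement, the core to which PU.1, a transcription factor of myeloid cells, binds.
C1qb: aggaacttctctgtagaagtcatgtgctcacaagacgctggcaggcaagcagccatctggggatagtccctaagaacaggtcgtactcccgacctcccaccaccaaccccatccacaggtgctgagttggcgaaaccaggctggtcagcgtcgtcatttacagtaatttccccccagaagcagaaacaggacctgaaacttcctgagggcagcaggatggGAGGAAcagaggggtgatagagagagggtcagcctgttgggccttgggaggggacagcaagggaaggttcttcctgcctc
C1qc: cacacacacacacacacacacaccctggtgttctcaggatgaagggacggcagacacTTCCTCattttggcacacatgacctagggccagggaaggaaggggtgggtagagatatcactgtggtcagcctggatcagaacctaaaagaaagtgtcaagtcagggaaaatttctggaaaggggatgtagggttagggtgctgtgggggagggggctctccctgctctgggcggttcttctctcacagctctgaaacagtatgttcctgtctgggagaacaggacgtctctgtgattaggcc
Mertk: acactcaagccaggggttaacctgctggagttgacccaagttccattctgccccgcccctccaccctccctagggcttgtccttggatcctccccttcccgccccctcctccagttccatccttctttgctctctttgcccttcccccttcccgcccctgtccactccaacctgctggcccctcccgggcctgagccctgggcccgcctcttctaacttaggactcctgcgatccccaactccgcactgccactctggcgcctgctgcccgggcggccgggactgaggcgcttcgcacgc
The core was present in windows of 5 of the 7 genes. It occurred 3 times for Mrc1, 2 times for Cd68 and 1 time each for C1qb, C1qc and a window of Ptprc. The windows of Lyz2 and Mertk did not hold these letters, though Lyz2 varied with the complement genes within groups (r of 0.81 to 0.87). The core is common, and 28.3% of 32851 promoter windows of the same length held it on either strand. Neither the palindromic consensus of the oestrogen response element nor that of the androgen response element occurred in any of the 8 windows, and they occurred in 0.0700% and 0.00913% of all windows. A match describes the letters of a window and not a bound site, and whether these letters bear on the co-variation was not tested.

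All 10 genes were measured at 2.06 TPM or more in every one of the 32 libraries, so all of them entered every test. The levels are given here per length and as group means over 4 libraries. Lyz2 was the most abundant of the set, from 120.2 TPM in UGS with testosterone to 454 TPM in control DLP, and its mean over all libraries exceeded that of 96.4% of the genes in the table. The complement genes came next, with group means between 48.0 TPM for C1qc in T+E2 urethra and 140.6 TPM for C1qa in UGS without hormone. Csf1r lay between 15.0 and 29.0 TPM and Emr1 between 6.82 and 16.6 TPM. Ptprc was the lowest, between 2.87 and 9.14 TPM, below most genes of the table. Csf1r spanned the narrowest range over the 8 groups, 1.94-fold between the lowest and the highest mean, and Mertk the widest, 8.66-fold.

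**Figure D1:**
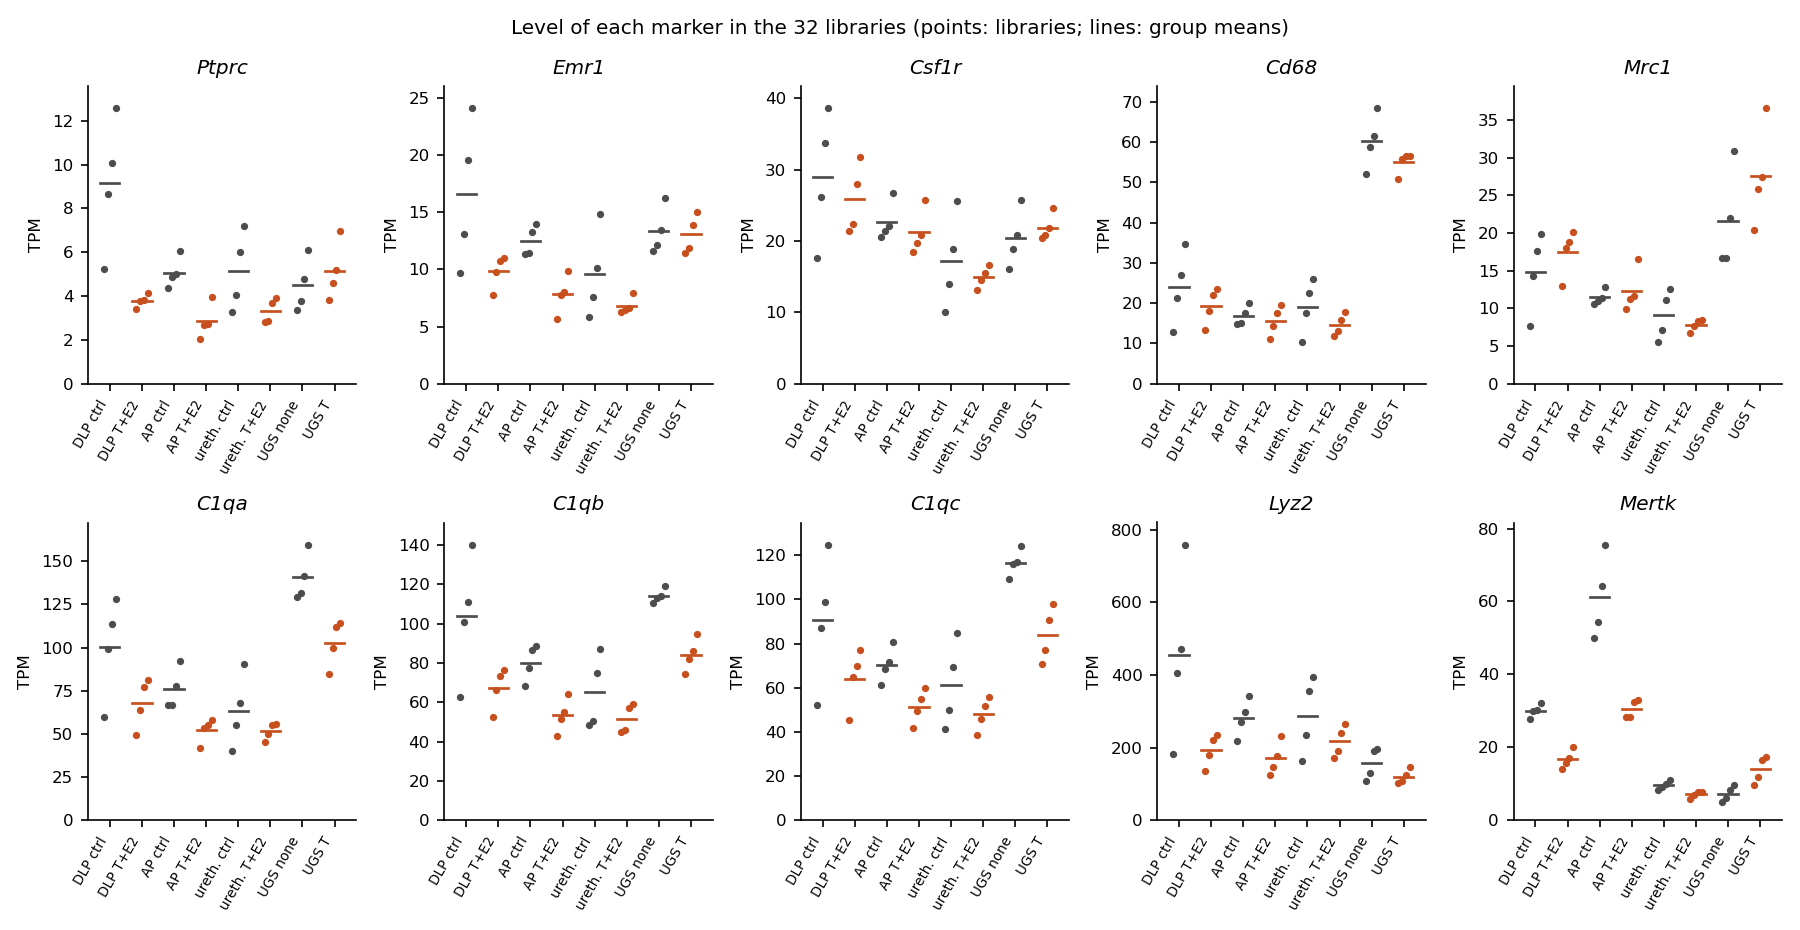
TPM of each of the 10 markers (vertical axes, starting at 0) in 8 groups of 4 libraries, with control or hormone-free groups in grey and hormone groups in orange; points are libraries and lines are group means. Control DLP had the highest mean for Ptprc, Emr1, Csf1r and Lyz2, UGS without hormone for Cd68 and the complement genes, and control AP for Mertk.

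Control DLP gave the highest mean for Ptprc, Emr1, Csf1r and Lyz2 and T+E2 urethra the lowest for all but Ptprc and Lyz2. UGS gave the highest means for Cd68, Mrc1 and the complement genes. Cd68 reached 52.18 to 68.47 TPM in UGS without hormone and 50.91 to 56.56 TPM with testosterone, and every adult library was lower, at 34.72 TPM or less. Along the order of group means most neighbours overlapped. For Ptprc, Csf1r, Mrc1, C1qb, C1qc and Lyz2 no pair of neighbouring groups stood apart.

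Mertk had its own order. Its 4 control AP libraries reached 64.36, 54.32, 75.62 and 50.08 TPM. The T+E2 AP libraries came next at 32.45, 33.02, 28.18 and 28.41 TPM, and the control DLP libraries followed at 27.80, 30.09, 30.13 and 32.05 TPM. Control AP stood above every other library, whereas T+E2 AP and control DLP overlapped. T+E2 DLP, UGS with testosterone, control urethra, UGS without hormone and T+E2 urethra followed with means of 16.7, 13.9, 9.66, 7.26 and 7.06 TPM.

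Within groups, 9 of the 10 markers varied together from library to library. After the mean of each group was subtracted, Pearson's r of log2(TPM + 1) over the 32 libraries was 0.67 to 0.97 for the pairs among these 9 genes. The 3 complement genes were the closest, with r of 0.93 to 0.97. Mertk did not follow, and its r with the others was -0.31 to 0.22. These coefficients are descriptions: libraries share their depth, composition and dissection, and no p is given.

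**Figure D2:**
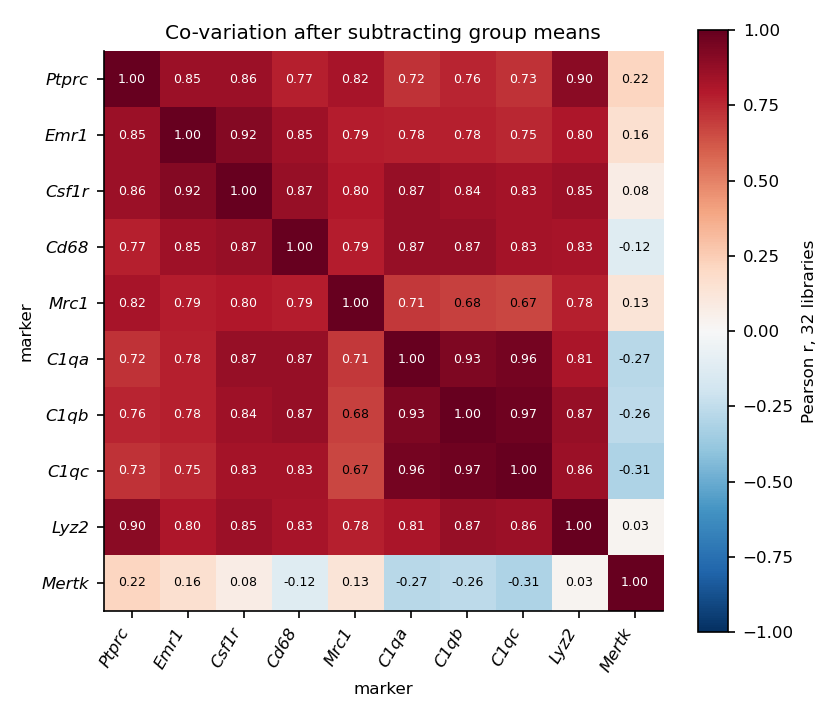
Pearson's r of log2(TPM + 1) between each pair of the 10 markers (both axes) over 32 libraries after subtraction of the group means, coloured from -1 to 1. Pairs among the 9 genes other than Mertk lie between 0.67 and 0.97, and pairs with Mertk between -0.31 and 0.22.

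The genes outside the set with the most similar within-group variation were mostly other genes of leukocytes. Among 11844 genes with a mean of at least 5 TPM, the closest to C1qb and C1qc was Tyrobp, an adaptor of activating receptors on myeloid cells, with r of 0.94 and 0.90. Laptm5, a lysosomal protein of blood cells, was closest to Csf1r (r = 0.90) and to C1qa (r = 0.89), and Ms4a6d was closest to Cd68 (r = 0.96). Mpeg1, a pore-forming protein of macrophages, was closest to Ptprc (r = 0.91) and Cybb, a subunit of the phagocyte oxidase, to Emr1 (r = 0.89). For Mrc1 it was Cmklr1 (r = 0.85), a receptor for chemerin. Lyz2 was most like its paralog Lyz1 (r = 0.91). The sequences of these paralogs are nearly the same, so the split of reads between them is uncertain. The nearest to Mertk were Six4, a homeobox gene (r = 0.90), Cds2, a lipid synthesis enzyme (r = 0.89), and Crebl2 (r = 0.89), none of them a leukocyte marker. Over the 32 libraries without subtraction of group means, Six4 ran opposite to Mertk (r = -0.55), while r was 0.89 for Cds2 and 0.85 for Crebl2.

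The C1q chains kept nearly equal levels within each library. In the 24 adult libraries the highest of the 3 chains was 1.01 to 1.21 times the lowest. In the 8 UGS libraries this ratio was 1.15 to 1.34, with C1qa above C1qb in each of them.

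The tissues were first compared without hormone, in a fit over the 12 control libraries of the adults with limma and Benjamini-Hochberg adjustment over all genes, called at an adjusted p under 0.05. Mertk separated all 3 tissues. Control AP exceeded control urethra by 2.53 ± 0.12 on the log2 scale (mean ± SE, adjusted p = 3.1e-10). Control DLP exceeded control urethra by 1.55 ± 0.12 (adjusted p = 8.0e-08) and lay below control AP by a log2 difference of -0.99 ± 0.12 (adjusted p = 1.6e-05). The control urethra values of 8.21, 10.06, 11.14 and 9.24 TPM stood below every value of both lobes.

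The other markers differed less. Ptprc was higher in control DLP, at 8.65, 12.58, 5.25 and 10.08 TPM, than in control AP, at 5.01, 4.85, 4.35 and 6.07 TPM. The log2 difference was 0.69 ± 0.23 (adjusted p = 0.0211), and the groups overlapped through DLP control library 9. In total 1 member was higher and 1 lower in DLP against AP, where 23.5% of all genes were called higher and 36.1% lower. Against urethra, 7 members were higher in DLP, where 33.8% of all genes were called higher and 29.5% lower. Beside Mertk these were Ptprc, Emr1, Csf1r, Mrc1, C1qa and C1qb, with log2 differences of 0.64 to 0.74. Between AP and urethra only Mertk was called, where 41.4% of genes were called higher in AP and 33.4% lower. Tissues differed in over a majority of all genes, so these counts are no mark of the set.

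These counts rested on single libraries. The counts that follow are no mark of the set either, since most genes were called between each pair of these tissues in the full fit. Without DLP control library 9, 8 members were called between DLP and AP, and without DLP control library 8, DLP control library 10 or AP control library 8 there was 1. Between DLP and urethra the 7 became 1 without DLP control library 8 or urethra control library 8 and 2 without DLP control library 10 or urethra control library 6. Between AP and urethra, 3 were called without urethra control library 10. Secretion and seminal vesicle transcripts took much of the TPM of the lobes: the 8 seminal vesicle genes alone held 15.3% to 26.7% of the total in the 8 DLP libraries. After the TPM were rescaled with the genes of secretion, seminal vesicle and mitochondria left out, 8 members were higher and Mertk lower in DLP against AP. That rescaling shifted all genes by a median of 0.38 between DLP and AP. It took the median log2 difference of all genes from -0.08 to 0.28, beside 0.71 for the members. The count in that fit is thus no mark of the set either.

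In the DLP, T+E2 went with lower Ptprc and Mertk. Ptprc fell from 8.65, 12.58, 5.25 and 10.08 TPM to 3.82, 3.42, 4.14 and 3.76 TPM. Every T+E2 value was below every control value, and the log2 fold change was -1.03 ± 0.20 (limma, adjusted p = 0.0076). Mertk fell from 27.80, 30.09, 30.13 and 32.05 TPM to 15.65, 19.96, 17.02 and 14.03 TPM, again without overlap, with a log2 fold change of -0.82 ± 0.10 (adjusted p = 0.00047). These 2 of 10 were the members called, both lower, where 4.63% of 13108 genes were called lower and 6.09% higher. The values of the groups did not overlap for these 2 members, where they did not overlap for 16.3% of all genes. In whole tissue, fewer cells of a type and less RNA per cell cannot be told apart.

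The remaining members in DLP did not pass the test. Lyz2 was measured at 405.27, 759.09, 181.34 and 471.71 TPM in controls and at 220.61, 135.99, 233.91 and 179.53 TPM after T+E2, a log2 difference of -1.09 ± 0.36 (adjusted p = 0.0823). DLP control library 9 gave the low control value, and it was the only overlap of the groups. C1qa was at 99.41, 128.30, 59.92 and 113.41 TPM in controls and at 77.03, 49.59, 81.13 and 64.11 TPM after T+E2, a log2 difference of -0.52 ± 0.22. The differences of C1qb, C1qc and Emr1 were -0.58, -0.45 and -0.64. Csf1r differed by -0.12 ± 0.22 and Cd68 by -0.25 ± 0.26, each within about 1 SE of 0. Mrc1 was the one member with a positive difference, 0.28 ± 0.25. The median of the 10 members was -0.55, beside 0.02 for all genes tested. As most members varied together within groups, these differences are not separate observations.

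DLP control library 9 was the lowest of the 4 controls for 9 of the markers. The 10 genes summed to 440 TPM in it, against 804, 1312 and 935 TPM in the other controls and 362 to 571 TPM after T+E2. Its Mertk level of 30.13 TPM was like that of the other controls. Without this library, where 1139 of 13067 genes were called in either direction, 7 members were called lower. They were Ptprc, Mertk, Emr1 (-0.85, adjusted p = 0.0209), C1qa (-0.75, adjusted p = 0.0186), C1qb (-0.80, adjusted p = 0.0087), C1qc (-0.69, adjusted p = 0.0421) and Lyz2 (-1.47, adjusted p = 0.0037). Csf1r, Cd68 and Mrc1 were not called in that fit, and their log2 differences were then -0.33, -0.50 and 0.01. The small difference of Csf1r and the positive one of Mrc1 thus rested in part on this library. What set DLP control library 9 apart was not tested.

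In the AP, T+E2 went with lower levels of 7 members, among them the pan-leukocyte marker, the complement genes, lysozyme and Mertk. Ptprc fell from 5.01, 4.85, 4.35 and 6.07 TPM to 3.96, 2.06, 2.74 and 2.70 TPM, a log2 fold change of -0.67 ± 0.15 (limma, adjusted p = 0.0066). Emr1 fell from 13.25, 11.44, 11.38 and 13.96 TPM to 9.90, 7.79, 7.98 and 5.70 TPM, a log2 fold change of -0.63 ± 0.14 (adjusted p = 0.0061). The control and T+E2 values did not overlap for either gene. Mertk fell from 64.36, 54.32, 75.62 and 50.08 TPM to 32.45, 33.02, 28.18 and 28.41 TPM, a log2 fold change of -0.96 ± 0.12 (adjusted p = 0.00017). This was the largest fold change of the set in AP, and the control values all lay at 50.08 TPM or above.

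The complement genes fell together. C1qa fell from 77.96, 66.85, 66.70 and 92.51 TPM to 58.24, 41.73, 53.44 and 55.20 TPM. C1qb fell from 86.72, 77.41, 68.04 and 88.58 TPM to 64.19, 42.87, 51.63 and 54.88 TPM. C1qc fell from 71.68, 68.35, 61.13 and 80.86 TPM to 59.88, 41.75, 49.24 and 54.70 TPM. No control value of these genes was as low as a T+E2 value, and the log2 fold changes were -0.53 ± 0.13, -0.58 ± 0.12 and -0.45 ± 0.12 (adjusted p = 0.0085, 0.0043 and 0.0125). Lyz2 fell from 341.82, 270.23, 218.37 and 297.16 TPM to 233.04, 124.71, 145.95 and 176.53 TPM, a log2 fold change of -0.75 ± 0.19 (adjusted p = 0.0108). Its groups overlapped, since T+E2 library 2 lay above control library 8.

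Csf1r, Cd68 and Mrc1 did not pass the test in AP. Csf1r was at 22.11, 21.39, 20.48 and 26.68 TPM in controls and at 25.74, 18.43, 20.87 and 19.77 TPM after T+E2, and the groups overlapped over most of their range. Its log2 difference was -0.10 ± 0.11, with a 95% interval from -0.35 to 0.16. That of Cd68 was -0.13 ± 0.16. Mrc1 differed by 0.08 ± 0.14, and this sign turned to -0.02 after quantile normalization.

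The members called numbered 7 of 10 lower, where 12.9% of 12525 genes were called lower and 21.6% higher. The groups did not overlap for 6 members, where they did not for 34.4% of all genes. The median log2 difference of the members was -0.56, beside 0.07 for all genes tested. Most of the members varied together within groups, so their calls and differences are not separate observations. Transcripts of seminal vesicle, the gland beside the AP, made up 9.94% and 7.23% of the TPM of T+E2 libraries 17 and 18 and 5.43% of control library 9, and at most 0.199% of the other 5 AP libraries. Without these 3 libraries, in a comparison of 3 controls with 2 T+E2 libraries, 3683 of 12168 genes were called in either direction. There C1qa, C1qb and Mertk were called and Ptprc, Emr1, C1qc and Lyz2 were not. Their log2 differences were then -0.56, -0.41, -0.41 and -0.67 (adjusted p = 0.0645, 0.0542, 0.0560 and 0.0683).

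**Figure D3:**
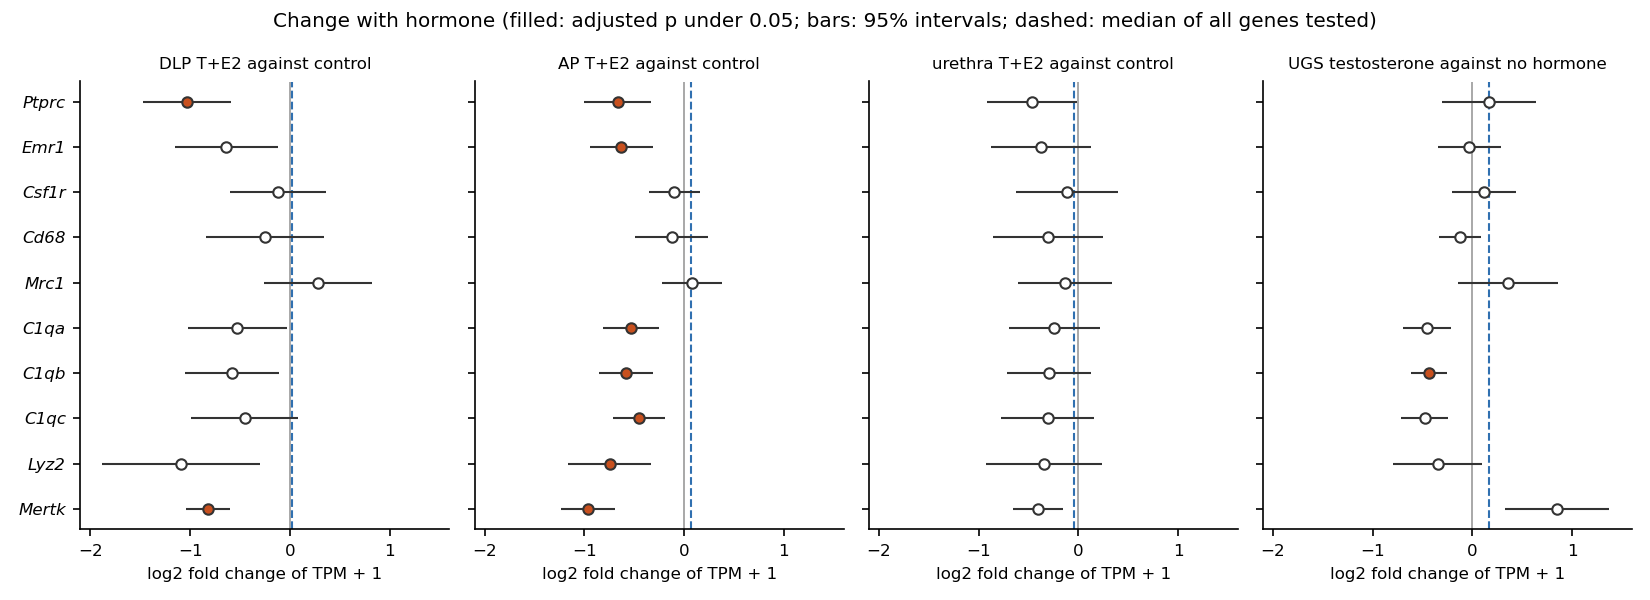
Log2 fold change of TPM + 1 for each of the 10 markers in 4 comparisons, hormone minus control, with 95% limma intervals; filled points passed an adjusted p of 0.05 and the dashed line is the median of all genes tested. Filled points number 2 in DLP, 7 in AP, 0 in urethra and 1 in UGS, and the Mertk point lies below 0 in the 3 adult tissues and above 0 in UGS.

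Csf1r also served as a reference within each library. It was chosen for this after its small differences in the fits with all libraries were seen. The ratios to it are therefore descriptions, and no test compared the changes of the markers with each other. In control DLP the ratio of Ptprc to Csf1r was 0.299 to 0.331, and after T+E2 it was 0.120 to 0.168. In AP it was 0.212 to 0.228 in controls and 0.112 to 0.154 after T+E2. Neither pair of groups overlapped. The ratio of C1qa to Csf1r was 3.32 to 3.80 in control DLP and 2.32 to 2.90 after T+E2, and 3.13 to 3.53 in control AP and 2.26 to 2.79 after T+E2.

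DLP control library 9, low for nearly all markers, lay with the other controls on these ratios. Emr1, C1qb, C1qc and Lyz2 were likewise lower relative to Csf1r without overlap in both lobes. In DLP the 6 genes Ptprc, Emr1, C1qa, C1qb, C1qc and Lyz2 were lower relative to Csf1r, where 1.83% of all genes were. In AP Mertk joined them, where 5.47% of all genes were lower relative to Csf1r and 15.6% higher. Mrc1 went the other way in DLP, with a ratio of 0.436 to 0.545 in controls and of 0.608 to 0.805 after T+E2, where 2.61% of all genes were higher. In AP the Mrc1 ratios overlapped. The shares of all genes are no even yardstick for these ratios, here and for urethra and UGS below. The 6 genes varied with Csf1r within groups (r of 0.83 to 0.92), so division by it takes out variation that they share. A gene that does not vary with Csf1r gains the spread of Csf1r instead. In TPM itself, the groups did not overlap for 16.3% of all genes in DLP.

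**Figure D4:**
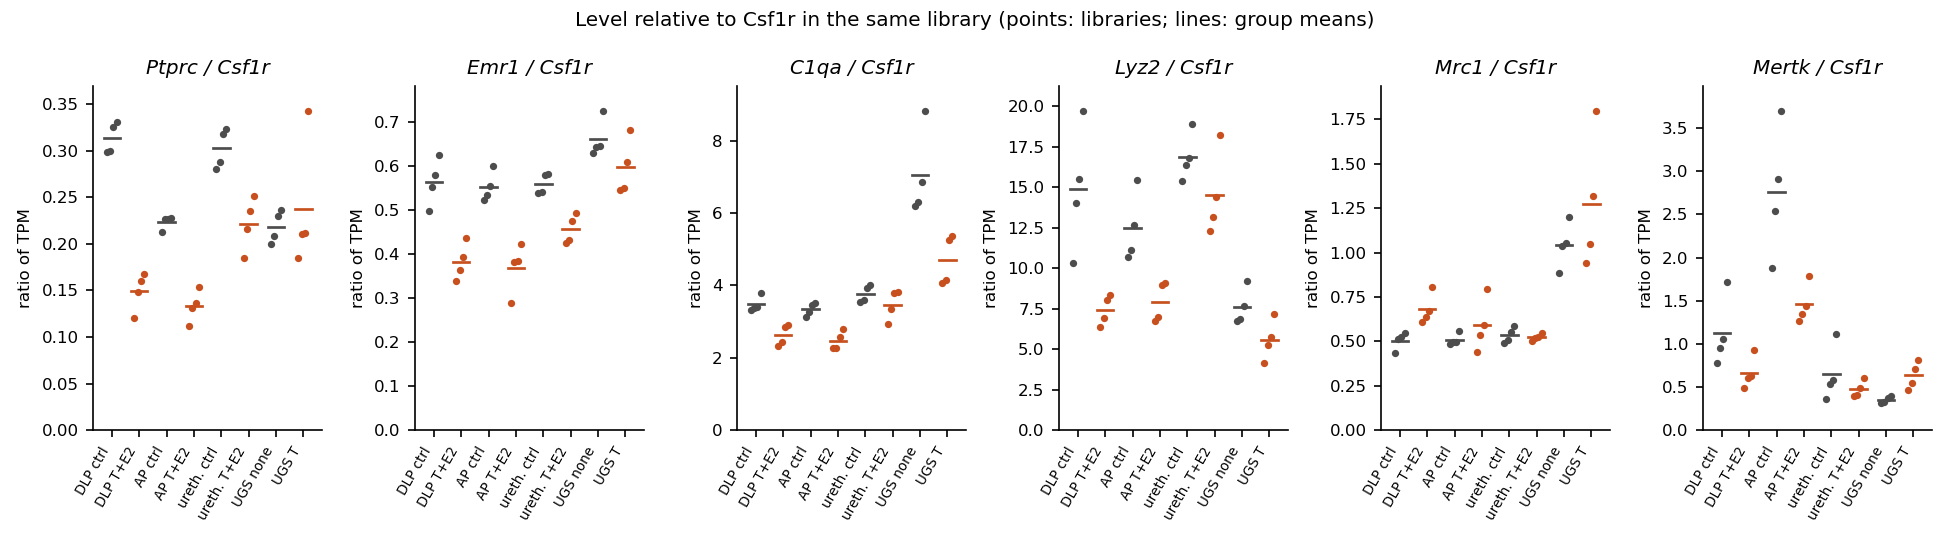
Ratio of TPM of 6 markers to that of Csf1r in the same library (vertical axes, starting at 0) in the 8 groups; points are libraries and lines are group means. Ptprc, Emr1, C1qa and Lyz2 ratios of the T+E2 libraries lie below those of the controls in DLP and AP, and Mertk ratios are highest in control AP.

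The ligand genes of Mertk went up in the lobes where Mertk went down. Gas6, which encodes a vitamin K-dependent ligand, rose in DLP from 161.70, 191.75, 179.45 and 193.45 TPM to 475.22, 433.71, 472.28 and 350.15 TPM, a log2 fold change of 1.24 ± 0.11 (limma, adjusted p = 4.0e-05). In AP it rose from 371.45, 392.33, 385.18 and 348.81 TPM to 1015.24, 1289.17, 728.55 and 846.04 TPM, a log2 fold change of 1.34 ± 0.15 (adjusted p = 6.6e-05). The groups lay wide apart in both lobes. Pros1, which encodes protein S, rose in DLP from 15.6 ± 2.37 to 22.3 ± 2.40 TPM (SD, n = 4), a log2 fold change of 0.49 ± 0.11 (limma, adjusted p = 0.0196), a call lost under 3 of 20 alternatives. In AP it rose from 12.02, 11.84, 10.10 and 12.27 TPM to 42.60, 56.34, 38.10 and 40.76 TPM, a log2 fold change of 1.84 ± 0.12 (adjusted p = 1.2e-06). In urethra neither gene was called, with log2 differences of 0.11 ± 0.12 for Gas6 and -0.20 ± 0.13 for Pros1. Axl, a receptor of the same family, was not called in any of the 4 hormone comparisons, with log2 differences of 0.01 in DLP, -0.03 in AP, -0.23 in urethra and 0.22 in UGS.

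The growth factor genes of macrophages showed no called change. Csf1 had log2 differences of -0.08 ± 0.09 in DLP, -0.18 ± 0.10 in AP, -0.17 ± 0.13 in urethra and 0.08 ± 0.13 in UGS. Those of Il34 were -0.09 ± 0.20, -0.09 ± 0.12 and -0.13 ± 0.13 in the adult tissues, and it was too low to be tested in UGS. Among 15 genes of macrophage signalling, 1 was lower and 2 higher in DLP, and 3 were lower and 2 higher in AP, beside the shares of all genes called of 4.63% lower and 6.09% higher in DLP and 12.9% lower and 21.6% higher in AP. The lower gene in DLP was Irf8, a transcription factor of monocytes and dendritic cells, at -0.72 ± 0.10 (limma, adjusted p = 0.00097). In AP the log2 fold changes were -0.66 ± 0.14 for Irf8 and -0.76 ± 0.17 for Tyrobp, and Fcer1g was the third lower gene, whose call was lost under 9 of 20 alternatives (adjusted p up to 0.132). Tyrobp did not pass in DLP (-0.72 ± 0.21, adjusted p = 0.0582), in urethra (-0.41 ± 0.20) or in UGS (-0.45 ± 0.09, adjusted p = 0.0514). Spi1, the gene of PU.1, was not analysed here.

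**Figure D5:**
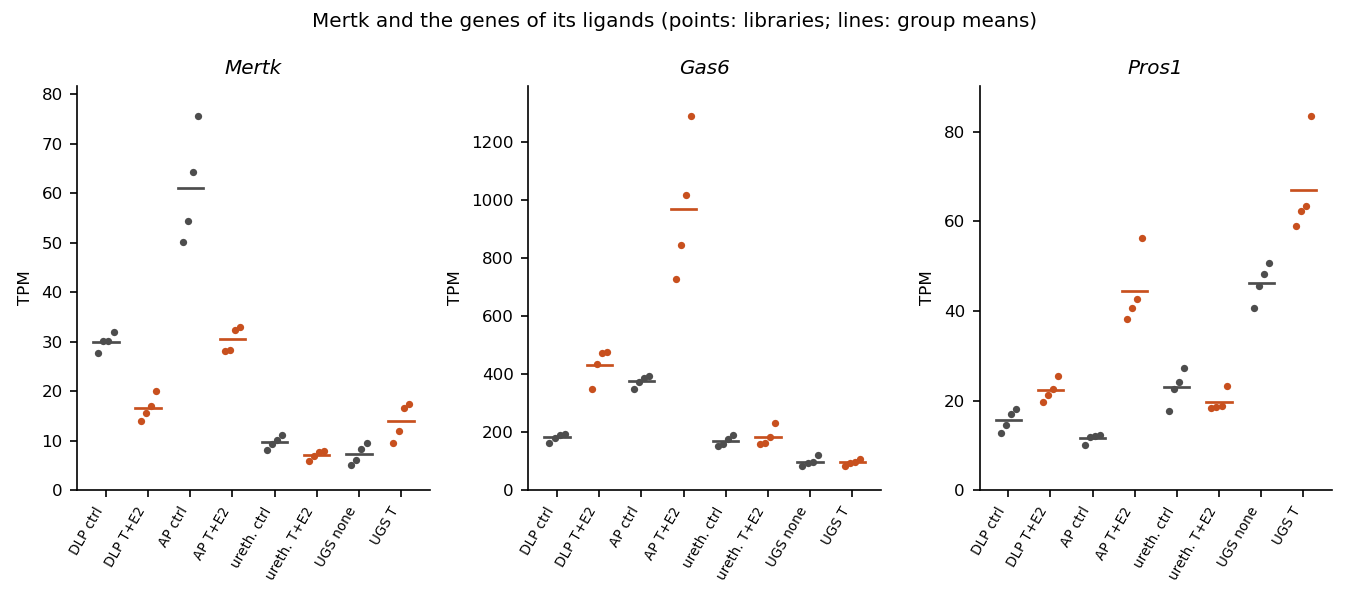
TPM of Mertk and of its ligand genes Gas6 and Pros1 (vertical axes, starting at 0) in 8 groups of 4 libraries; points are libraries and lines are group means. In DLP and AP the T+E2 libraries lie below the controls for Mertk and above them for Gas6 and Pros1.

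Other macrophage and monocyte genes moved in both directions. In DLP 12 of 34 tested were lower and 1 higher, where 4.63% of all genes were lower and 6.09% higher. In AP 11 of 33 were lower and 3 higher, where 12.9% of all genes were lower and 21.6% higher. Their median log2 differences were -0.16 and -0.06. Mgl2, a lectin of dendritic cells and of macrophages exposed to interleukins of type 2 immunity, rose in both, by 1.11 ± 0.16 in DLP (limma, adjusted p = 0.0015) and 1.16 ± 0.11 in AP (adjusted p = 2.8e-05). Folr2, a folate receptor of resident macrophages, rose in AP by 1.71 ± 0.11 (adjusted p = 1.1e-06). Aif1, a cytoskeletal protein of macrophages, had log2 fold changes of -1.31 ± 0.19 in DLP and -0.91 ± 0.18 in AP, and was not called in urethra (-0.54 ± 0.14) or UGS (-0.43 ± 0.20). The other genes named by the rule were Ly6c2, a surface antigen of inflammatory monocytes (-1.76 ± 0.26 in DLP), Ctss, a lysosomal protease (-1.47 ± 0.27 in DLP), and Mpeg1 (-0.96 ± 0.19 in AP).

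Of 18 pan-leukocyte genes, 4 were lower and 0 higher in DLP and 7 were lower and 1 higher in AP, to be read against the same shares of all genes. The 4 in DLP were Coro1a, which encodes an actin-binding protein, Lcp2, an adaptor of receptor signalling, Hcls1, a substrate of leukocyte kinases, and Rac2, a small GTPase, with log2 fold changes of -0.87, -0.81, -0.70 and -0.86. The call of Rac2 in DLP was lost under 5 of 19 alternatives. In AP those of Lcp2, Fyb and Rac2 were -1.85 ± 0.13, -0.70 ± 0.14 and -0.66 ± 0.15. Cd52, whose product is also made by epithelium of the male reproductive tract, rose in AP by 2.22 ± 0.37 on the log2 scale. Of the genes of the proteases that join C1q in the C1 complex, C1ra and C1rb fell in both lobes and C1s in AP. The log2 fold changes were -1.56 ± 0.11 in DLP and -1.17 ± 0.15 in AP for C1ra, -2.79 ± 0.17 and -1.33 ± 0.18 for C1rb, and -0.70 ± 0.07 in AP for C1s. In DLP C1s differed by -0.40 ± 0.19 and did not pass (adjusted p = 0.227). C1ra and C1rb are close paralogs, so the split between them is uncertain. Of the 7 tested genes of the list that holds them and the lysozyme paralogs, 2 were lower in DLP and 4 in AP. The fourth was Lyz1, with a log2 fold change of -0.49 ± 0.17 in AP, and its differences of -0.75 in DLP, -0.24 in urethra and -0.40 in UGS were not called. The call of Lyz1 in AP was lost under 8 of 20 alternatives (adjusted p up to 0.170).

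Markers of other leukocytes were few in the table. Of the T and NK cell list, 2 of 21 genes were in the table. Lck and Thy1 were lower in both lobes, and Thy1, which is made by stromal cells too, lost its call in DLP under 4 of 20 alternatives. Their summed level was 24.0 to 33.8 TPM in control DLP, 14.5 to 23.3 TPM in T+E2 DLP, 27.7 to 30.1 TPM in control AP and 9.03 to 15.3 TPM in T+E2 AP. Of 5 B and plasma cell genes, 2 were higher in DLP, Sdc1 and Ms4a1, and 3 were higher and 1 lower in AP. The log2 fold changes in AP were 2.87 ± 0.19 for Cd79b and -1.06 ± 0.18 for Igj. The mean of Cd79b was 0.645 TPM in control AP, under the 1 TPM of the filter, and 11.04 TPM in T+E2 AP. In DLP the call of Ms4a1 was lost under 10 of 19 alternatives and that of Sdc1 under 6 of 20, and without DLP control library 9 the list had 1 gene higher and 1 lower. Batf3, a factor of dendritic cells, was lower in both lobes, with log2 fold changes of -1.29 ± 0.23 and -2.21 ± 0.14. Zbtb46 was called higher in AP at means near the 1 TPM of the filter, 0.91 TPM in controls and 1.68 TPM after T+E2. No neutrophil or mast cell gene was called in any hormone comparison. The part of these cells in the result for the members was not tested, and Cd3d, Cd3e, Cd3g and Cd79a were not analysed here.

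These list counts also shifted with single libraries. Without DLP control library 9, 12 pan-leukocyte genes and 4 signalling genes were lower in DLP, where 1139 of 13067 genes were called in either direction. Skeletal muscle transcripts moved with T+E2 in DLP: the log2 differences of all 13 muscle genes tested were positive, with a median of 3.43 and 2 called, and their sum was 1191, 466, 3324 and 3670 TPM after T+E2 and 391 to 1135 TPM in controls. Without T+E2 libraries 18 and 24, the highest in them, 8 other macrophage genes and 2 pan-leukocyte genes were lower in DLP, and 2 members still were. That fit called 717 of 12943 genes in either direction. Without the 3 AP libraries rich in seminal vesicle transcripts, 5 other macrophage genes and 3 pan-leukocyte genes were lower in AP, and 0 of the signalling genes. That fit called 3683 of 12168 genes in either direction. In urethra and in UGS no gene of these immune lists was called by limma, and 19 of 85 and 23 of 80 tested had an unadjusted p under 0.05, where 14.7% and 32.1% of all genes had one. The lists were written from textbook knowledge with earlier results known, so their counts are descriptions.

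In the urethra no member passed the test. All 10 log2 differences were negative, from -0.46 for Ptprc to -0.11 for Csf1r, with a median of -0.31 beside -0.04 for all genes tested. Without control library 10, Csf1r turned to 0.10 and Mrc1 to 0.03. Most of the markers varied together within groups, so their signs are not separate observations. Ptprc was at 4.04, 6.00, 3.25 and 7.20 TPM in controls and at 2.88, 2.82, 3.93 and 3.66 TPM after T+E2, with 1 control value inside the T+E2 range. Mertk was at 8.21, 10.06, 11.14 and 9.24 TPM in controls and at 7.67, 7.84, 6.87 and 5.84 TPM after T+E2. Its groups did not overlap, where they did not for 8.10% of all genes, and its log2 difference was -0.40 ± 0.11 (limma, adjusted p = 0.162). Prostate secretion genes lay lower with it: all 12 had negative log2 differences, with a median of -1.82, and summed to 7877 to 40447 TPM in controls and 3882 to 5657 TPM after T+E2. Control library 8 held the most of them and the highest Mertk level, and without it the Mertk difference was -0.34 (adjusted p = 0.254). Ptprc and Mertk were the 2 of 10 members with an unadjusted p under 0.05, as had 14.7% of all genes. Few genes were called in urethra at all, 0.200% higher and 0.162% lower of 12985. Limma with array weights called these 2 members lower, but also 10.5% of all genes lower and 7.44% higher. Relative to Csf1r, Ptprc and Emr1 were lower without overlap, where 0.801% of all genes were.

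The 3 tissues' responses were compared directly in 1 fit over the 24 adult libraries. Mertk fell more in AP than in urethra, by a difference of log2 fold changes of -0.56 ± 0.17 (limma, adjusted p = 0.0188). It was the 1 member called lower there, where 7.06% of all genes were and 17.4% were higher. Between DLP and urethra, where 1.17% of all genes were called lower and 2.46% higher, no member was called and 1, Mertk, had an unadjusted p under 0.05, as had 17.4% of all genes. Between AP and DLP none was called and none had an unadjusted p under 0.05, where 3.27% of all genes were lower and 7.18% higher. The 95% interval of the difference between AP and DLP ran from -0.49 to 0.21 for Mertk and from -0.23 to 0.96 for Ptprc. The 7 calls in AP against 2 in DLP are therefore not shown to differ between the lobes.

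The ligand genes differed more clearly. The rise of Gas6 exceeded that in urethra by 1.23 ± 0.20 in AP (limma, adjusted p = 8.2e-05) and by 1.14 ± 0.20 in DLP (adjusted p = 0.0013). The rise of Pros1 in AP exceeded that in DLP by 1.35 ± 0.18 (adjusted p = 2.8e-05).

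In cultured UGS, testosterone went with lower C1qb, and the other chains lay lower without passing the test. C1qb fell from 118.88, 113.06, 110.40 and 113.94 TPM without hormone to 82.17, 85.81, 74.41 and 94.45 TPM, a log2 fold change of -0.44 ± 0.08 (limma, adjusted p = 0.0300). C1qa was at 159.70, 129.49, 131.63 and 141.63 TPM without hormone and at 99.70, 114.00, 84.84 and 111.71 TPM with testosterone. C1qc was at 124.32, 116.85, 115.93 and 109.29 TPM and at 77.00, 90.49, 70.58 and 97.76 TPM. For all 3 genes every testosterone library was below every library without hormone, but C1qa (-0.46 ± 0.11, adjusted p = 0.0809) and C1qc (-0.48 ± 0.11, adjusted p = 0.0598) did not pass the test.

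Mertk had the opposite sign in UGS from that in the adult tissues. It was at 9.58, 6.07, 8.33 and 5.05 TPM without hormone and at 17.46, 11.98, 16.59 and 9.60 TPM with testosterone. The groups touched without overlapping, at 9.58 against 9.60 TPM. The log2 difference of 0.85 ± 0.23 did not pass the test (limma, adjusted p = 0.105). Csf1r, Ptprc, Emr1, Cd68, Mrc1 and Lyz2 were not called, with log2 differences between -0.35 for Lyz2 and 0.35 for Mrc1. Pros1 differed by 0.52 ± 0.12 (adjusted p = 0.0751) and Gas6 by -0.03 ± 0.12.

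In UGS 1 member was thus called lower, where 0.301% of 13304 genes were called lower and 1.43% higher. The groups did not overlap for 4 members, where they did not for 10.8% of all genes. Relative to Csf1r the 3 C1q genes were lower without overlap, where 1.40% of all genes were, and Mertk was higher, where 5.39% were. The median log2 difference of all genes was 0.17, so the differences of the C1q genes stand further below that median than below 0. That of Mertk stands less far above it than above 0. After median-of-ratios scaling, which moved that median by -0.17, Csf1r turned from 0.11 to -0.06. C1qa, C1qb and C1qc were then at -0.64, -0.62 and -0.66, and Mertk at 0.69. With the length trend removed instead, the C1q genes were at -0.37, -0.36 and -0.42, and Mertk at 0.52. The call of C1qb was lost without any of 7 libraries taken out singly, that is all but testosterone library H, with an adjusted p of up to 0.121. Without library H, C1qa, C1qc and Mertk were called as well, with Mertk at 1.00 (adjusted p = 0.0183). In that fit 3.35% of all genes were called lower and 30.8% higher.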

How the data were processed

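RNA was sequenced from 24 adult and 8 embryonic tissue libraries. The authors deposited 1 table with TPM for each gene and library. The tools named, per the submitters' processing notes, were FastQC, STAR, RSEM and edgeR, on build mm9 and without roles or versions. No gene had a mean under 4.998 TPM in all groups, and library sums were 994133 to 997961 TPM. Since TPM holds no read total, sequencing depth is unknown.

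Groups were compared with limma 3.58.1 (R 4.3.3, mean-variance trend) on log2(TPM + 1), which understates changes of low genes. A gene entered a fit if 4 or more of its libraries reached 1 TPM, and p-values were adjusted by Benjamini-Hochberg over all genes tested, with calls under 0.05. Each tissue was fitted alone, the 12 control adult libraries in 1 fit and the 24 adult libraries in 1 fit for differences of effects. The fit was tested on simulated data. The members and the gene lists were chosen with earlier results of these data known. From each list, up to 4 called genes with the smallest adjusted p are named, and Csf1, Il34, Gas6, Pros1, Axl, Tyrobp, Lyz1 and Aif1 were to be given whatever their outcome. As most alike, the 3 genes with the highest r were taken for each member, and the first is named for all but Mertk. Alternatives were pseudocounts of 0.1 and 5, other filters, scalings and limma options, blocks on title numbers, and leaving out each library. Promoter windows matched by symbol come from RefSeq (GRCm38.p6). Figures were drawn with matplotlib 3.10.9.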

Additional observations from a re-analysis of the deposited data

Results flagged for a closer look

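Single libraries lay far from the other 3 of their group in 5 of 144 groups of a gene and 4 libraries, by Dixon's criterion on the gap to the nearest library. Chance flags about 1 in 20 such groups. Cd68 was 50.91 TPM in UGS testosterone library C, below the other 3. Csf1 was 28.68 TPM in UGS testosterone library G and 25.94 TPM in UGS library A without hormone, both above the others. In T+E2 urethra, Il34 was 8.45 TPM in library 2 and Pros1 was 23.21 TPM in library 3.

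The response to T+E2 differed between tissues for Mertk and for its ligand genes, by the test of the difference with limma. The Mertk fall was larger in AP than in urethra by a log2 difference of -0.56. The Gas6 rise was larger than in urethra by 1.23 in AP and by 1.14 in DLP. The Pros1 rise was larger in AP by 1.35 than in DLP and by 2.04 than in urethra, and larger in DLP by 0.69 than in urethra.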

How the results depend on the processing

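The number of members called stayed within 1.5 times that reported under 224 of 253 alternatives. Of these alternatives, 35 belonged to each difference of effects between tissues, with 0 or 1 member called, and 19 to urethra, with 0. A count of 0 in both fits was taken as unmoved, so the total says little about the comparisons with calls. The number moved further under 12 of 20 in UGS, 6 of 23 for untreated DLP against AP and 5 of 23 for untreated DLP against urethra. With array weights it was 5 in DLP, 2 in urethra, 5 in UGS and 1 for the effect in DLP against urethra, where that fit called 16.6%, 18.0%, 57.2% and 11.5% of all genes. Leaving out 1 library gave 2 to 7 in DLP, 0 to 4 in UGS, 1 to 8 for untreated DLP against AP, 1 to 9 for DLP against urethra and 1 to 3 for AP against urethra, and 7 throughout in AP and 0 in urethra. The number of all genes called shifted too. In UGS the fit with 4 members called 4536 of 13286 genes. Without library C of the arm without hormone, 0 members and 94 of 13298 genes were called. The DLP fit with 7 members called 1139 of 13067 genes. Without the 3 AP libraries richest in seminal vesicle genes the number of members was 3, where that fit called 3683 of 12168 genes. In UGS it was 0 without the trend, where 214 of 13304 genes were called, and 2 with the length trend removed. Untreated DLP against AP gave 1 after quantile normalization and 9 after rescaling without secretion genes, and DLP against urethra gave 4 with robust hyperparameters. For the length trend and the untreated tissues no share of all genes in the same fit is set beside these counts. They are therefore no mark of the set. The causes were not tested. Removal of the AP libraries and of the length trend was chosen after seeing the data.

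The labels do not say that shared title numbers mark 1 animal. Same-numbered adult libraries deviated together with r of -0.15 to 0.21 over 15 pairs, and the 2 UGS letters found in both arms gave 0.08 and 0.62. No pairing was assumed, since the labels give none. In the fits with blocks, limma's consensus correlation was 0.73 in UGS, beside 0.067 and 0.078 in the adult fits. Whether the UGS letters mark shared material was not tested. With the letter as a replicate block, 5 members were called in UGS: C1qa, C1qb and C1qc lower, and Mrc1 and Mertk higher, where that fit called 5.53% of all genes lower and 37.2% higher. The block changed no other count by over 1.5 times. Of 8215 results for single genes, 182 lost and 136 gained a call, and 0 called values reversed. Mertk and Ptprc in DLP, and Mertk in AP, kept their calls under all 20 alternatives. The unknown depth limits the lowest member, Ptprc.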
